A study of Mus musculus with 2 samples.

Results

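The 9 complement genes C1qa, C1qb, C1qc, C3, C4b, C3ar1, C5ar1, Itgam and Itgb2 were followed by symbol through 2 single-cell libraries. They are 9 of the 32589 features listed in both matrices, and all 9 were found in each. The cells were microglia sorted as CD45low CD11b+ from the prefrontal cortex of C57BL/6 mice, and single-cell RNA was captured with a Singleron GEXSCOPE kit. The vehicle group received vehicle and the corticosterone group received corticosterone, the main glucocorticoid of rodents, by oral gavage, a way of modelling depression linked to high stress hormone. Age, sex, dose, duration and the number of mice behind a library are not given in the sources used here. There was 1 library per group. Differences between the groups therefore rest on single libraries and are given without p-values, and treatment, library and any batch of preparation cannot be told apart. The names of the deposited matrices call the libraries wild type and depression, and the groups here follow the sample records.

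Complement is a set of secreted proteins that tag targets for removal, with receptors on phagocytes that read the tags. C1q, built from the chains A, B and C of C1qa, C1qb and C1qc, starts the classical pathway, C4 carries it on, and C3 is the shared hub whose cleavage coats the target and releases the peptide C3a. C3ar1 and C5ar1 are the receptors for C3a and C5a, and Itgam (CD11b) pairs with Itgb2 (CD18) in complement receptor 3, which binds cleaved C3 on a target. In the brain, microglia are the main source of C1q, and C1q, C3 and complement receptor 3 take part in the removal of synapses. The sort itself selected cells by the protein of Itgam.

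The filtered libraries held 10500 vehicle and 17883 corticosterone cells with 49325067 and 85103539 UMIs (molecular tags that count each captured transcript). The median cell held 3220.5 UMIs in vehicle and 3961 in corticosterone, and the median mitochondrial share was 2.67% and 4.20%. The libraries shared 101 cell barcodes among kept cells. Microglia-like cells, among which UMIs of all 10 fixed microglia markers were found, numbered 7897 in vehicle and 15260 in corticosterone. In the largest clusters of this class 0 of these markers were 2 times above the rest, so the class was named by their level. The remaining cells formed border-associated macrophage-like (1049 and 770), neutrophil-like (201 and 274), monocyte-like (52 and 98), erythroid cell-like (180 and 85), endothelial cell-like (42 and 25) and cycling (21 and 2) classes. A further 3 clusters stayed unnamed and are called by their leading genes, the Camp, Ngp and Ltf cluster (235 and 124), the H2-Eb1, H2-Aa and Cd74 cluster (184 and 82) and a cluster of low UMI counts led by Kcnq1ot1, Lrmda and Nav2 (639 and 1163). The endothelial cell-like and cycling classes are too small to compare. No complement gene entered the clustering. Within the microglia-like class the libraries filled different clusters, since 1 cluster held 7255 of the vehicle cells and 2 others held 10698 and 3638 of the corticosterone cells.

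In microglia-like cells the 3 receptors C3ar1, C5ar1 and Itgb2 were higher in the corticosterone library, Itgam was lower, and the C1q chains moved apart by small amounts. Levels are CPM, the UMIs of a gene per 1000000 UMIs summed over the cells of a class, with exact Poisson 95% intervals that cover counting error only. CPM is not adjusted for transcript length, so levels are compared between cells and not between genes. A member was counted as higher or lower when the libraries differed by at least 1.5-fold. On that rule 5 of the 9 members were higher (C3, C4b, C3ar1, C5ar1, Itgb2) and 0 were lower. Among the 6604 genes whose mean over both libraries reached 20 CPM, 5.27% were higher and 4.72% were lower by the same fold. At that level of expression 3 of 7 members were higher, because C3 and C4b lay far below it. The median log2 ratio of corticosterone over vehicle was 0.65 over the 9 members and 0.31 over those 7, while the median of all genes was 0.00.

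**Figure D1:**
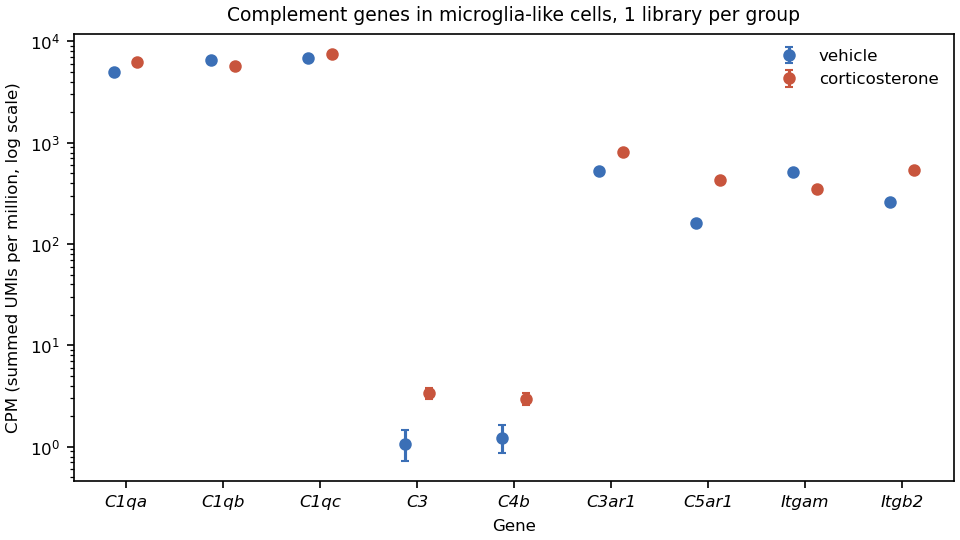
CPM (log scale) of the 9 genes in microglia-like cells of the vehicle library (blue) and the corticosterone library (red), 1 library per group. Bars are 95% Poisson intervals, hidden behind the points for all genes but C3 and C4b, which lie between 1.05 and 3.37 CPM.

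C1q transcripts were abundant in microglia-like cells. C1qa was at 5011 CPM (95% interval 4987 to 5035) in vehicle and 6228 (6210 to 6246) in corticosterone, and the log2 ratio was 0.31 (0.31 to 0.32). C1qb went the other way, with 6595 CPM in vehicle and 5672 in corticosterone (log2 ratio -0.22). C1qc was at 6895 and 7486 CPM, a log2 ratio of 0.12. None of the chains passed 1.5-fold. The 3 chains summed to 18501 CPM in vehicle and 19386 in corticosterone, so that their total differed less than their proportions. Thinned to 1000 UMIs per cell, 98.4% of 7308 vehicle and 98.8% of 15167 corticosterone microglia-like cells held at least 1 UMI of all 3 chains. Erythroid cell-like barcodes, which should make no C1q, gave 91.4% of 151 and 92.8% of 83 at the same depth, so that detection of the chains hardly sets cells that make C1q apart. The median microglia-like cell then held 18 C1q UMIs in vehicle and 19 in corticosterone, and 0 and 1 such cells held none. The median erythroid cell-like barcode held 16 in vehicle and 18 in corticosterone. Within a library the chains barely tracked each other from cell to cell at this depth, with Pearson r between 0.10 and 0.17, which in sparse counts is no finding.

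The 3 C1q genes lie beside each other on mouse chromosome 4 (GRCm38), C1qb at chr4:136880129-136886187, C1qc at chr4:136889804-136893065 and C1qa at chr4:136895917-136898803. All are on the minus strand, within 18675 bases. Because these genes are neighbours and abundant in the same cells, the 250 bases before RefSeq's start sites of C1qb (chr4:136886201-136886450, minus strand) and C1qc (chr4:136892915-136893164, minus strand) are shown 5′ to 3′ from RefSeq's table for GRCm38.p6, which matched 6 of the 9 members. Capitals mark the letters GAGGAA or their reverse complement, the core bound by PU.1, a transcription factor of myeloid cells.
C1qb: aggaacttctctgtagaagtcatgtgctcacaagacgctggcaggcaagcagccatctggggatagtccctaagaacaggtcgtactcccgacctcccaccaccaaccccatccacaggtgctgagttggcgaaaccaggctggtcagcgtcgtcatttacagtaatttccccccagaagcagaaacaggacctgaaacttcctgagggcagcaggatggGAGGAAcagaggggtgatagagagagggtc
C1qc: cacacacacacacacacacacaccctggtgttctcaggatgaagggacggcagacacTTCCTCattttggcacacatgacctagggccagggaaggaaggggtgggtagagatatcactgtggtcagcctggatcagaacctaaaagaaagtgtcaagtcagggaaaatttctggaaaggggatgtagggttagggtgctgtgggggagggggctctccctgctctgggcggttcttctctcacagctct
RefSeq's start of C1qb lies 13 bases upstream of the gene's end given above, and that of C1qc 151 bases inside the gene, so part of the C1qc stretch lies within it. Distances count from RefSeq's starts. The match began 30 bases before the start in C1qb and 193 bases before it in C1qc. In windows of 300 bases (250 before to 50 after the start, both strands), 28.3% of 32851 promoters held GAGGAA, and of the matched members C1qb, C1qc and Itgam did, with 3 matches in Itgam. The core of the glucocorticoid receptor's binding site, ACANNNTGT, was found in 6.85% of promoters and among the members in C1qc alone, as ACAGTATGT from 3 bases after the start. The interferon-stimulated response element (3.44% of promoters) and the gamma-interferon site TTCNNNGAA (8.30%) were found in none of the 6 windows. The searched motifs do not contain one another, and a match is a description of letters only.

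The proportions of C1qa and C1qb separated the libraries in every cell class compared. That of C1qc overlapped, at 35.9% to 38.6% over the classes in vehicle and 37.9% to 39.8% in corticosterone. Of all C1q UMIs in microglia-like cells, C1qa made up 27.1% in vehicle and 32.1% in corticosterone, C1qb 35.6% and 29.3%, and C1qc 37.3% and 38.6%. Expressed as C1qb UMIs per C1qa UMI, the ratio was 1.32 in vehicle and 0.911 in corticosterone microglia-like cells. In the 8 classes that held 50 or more cells on both sides, that ratio ranged from 1.27 to 1.46 in vehicle and from 0.894 to 1.06 in corticosterone, with no overlap. Microglial RNA was present in every class, so the classes are not independent observations. How many other pairs of genes separate the libraries in this way was not tested. The ratio was the same kind of shift in erythroid cell-like barcodes (1.27 and 0.927), which should make no C1q. The 5 subclusters of microglia-like cells did not overlap between libraries either, at 1.28 to 1.495 in vehicle and 0.874 to 1.03 in corticosterone. With the cells of each library cut into 4 groups by UMI count, C1qb was lower and C1qa higher in corticosterone in all 4. From the shallowest to the deepest group C1qb went from 5644 to 6930 CPM in vehicle and from 5412 to 5839 in corticosterone, and C1qa from 4612 to 5143 in vehicle and from 6356 to 6185 in corticosterone.

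**Figure D2:**
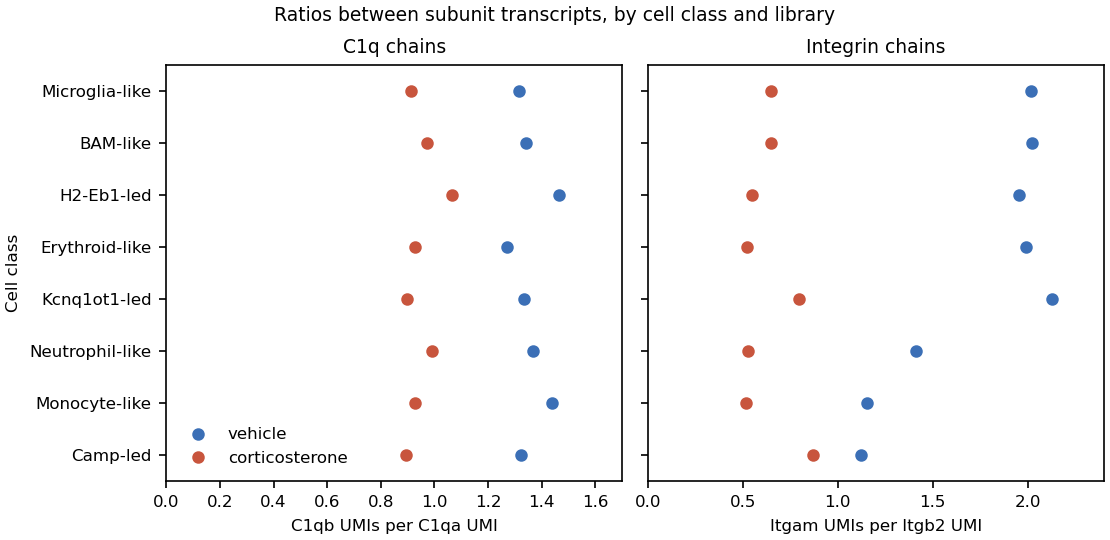
UMIs of C1qb per UMI of C1qa (left) and of Itgam per UMI of Itgb2 (right) in 8 cell classes (rows) of the vehicle (blue) and corticosterone (red) libraries. BAM-like is border-associated macrophage-like, and Kcnq1ot1-led, Camp-led and H2-Eb1-led are the unnamed clusters. In both panels every vehicle point lies to the right of every corticosterone point.

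Both integrin chains of complement receptor 3 differed between the libraries, in opposite directions. Itgam (chr7:128062640-128118491, plus strand) was at 520 CPM in vehicle and 351 in corticosterone microglia-like cells, a log2 ratio of -0.57 (-0.59 to -0.54), which is just short of 1.5-fold. Itgb2 (chr10:77530252-77565708, plus strand) was at 258 and 543 CPM, a log2 ratio of 1.07 (1.04 to 1.11). Among the 6604 genes Itgb2 ranked 99th from the top and Itgam 331st from the bottom. Vehicle microglia-like cells thus held 2.01 Itgam UMIs per Itgb2 UMI, and corticosterone cells 0.647. Thinned to 1000 UMIs, Itgam was detected in 38.5% of vehicle and 28.4% of corticosterone cells, and Itgb2 in 22.1% and 40.8%. Erythroid cell-like barcodes gave 31.1% and 31.3% for Itgam and 13.2% and 42.2% for Itgb2, so the shares in corticosterone are not above this background. Both chains were detected in the same cell in 8.76% and 11.7%. Unthinned, at median depths of 3193 and 4002 UMIs, Itgam was seen in 72.1% and 70.4% of cells and Itgb2 in 52.5% and 84.0%.

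Of 9 other integrin chains of leukocytes listed, 5 reached a mean of 20 CPM and none of these 5 passed 1.5-fold. Itgb5, a partner of the alpha v chain, was at 1278 and 1658 CPM (log2 ratio 0.38) and Itgav, the alpha v chain, at 108 and 139 CPM (0.36). Itgb1, the common beta chain, was at 202 and 205 CPM (0.02). Itga6 and Itgb3 had log2 ratios of -0.07 and -0.23. Itgal, named here after its values were seen, the alpha chain that pairs with Itgb2 in LFA-1 on lymphocytes and neutrophils, was near absent from microglia-like cells at 0.341 and 3.06 CPM (log2 ratio 3.17, from 11 and 219 UMIs). Itga4 and Itgb7, the chains of a lymphocyte homing receptor named for the same reason, were also rare and above 1.5-fold, at 1.58 and 5.05 CPM (1.67) and at 0.434 and 0.938 CPM (1.11). Itgad, the remaining listed chain under 20 CPM, went the other way, at 5.43 and 3.65 CPM. Its log2 ratio was -0.57 (-0.85 to -0.29), short of 1.5-fold.

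Both receptors for anaphylatoxins, the small peptides C3a and C5a, were higher in the corticosterone library. C5ar1 (chr7:16246743-16259540, minus strand), which draws phagocytes toward C5a, was at 160 CPM (155 to 164) in vehicle and 433 (428 to 438) in corticosterone microglia-like cells. Its log2 ratio was 1.44 (1.40 to 1.48), and it ranked 50th from the top of the 6604 genes. C3ar1 (chr6:122847138-122856161, minus strand) was at 521 and 815 CPM, a log2 ratio of 0.65 (0.62 to 0.67). After thinning, C5ar1 was detected in 14.0% of vehicle and 33.1% of corticosterone cells, and C3ar1 in 38.8% and 53.2%. In erythroid cell-like barcodes (median depth 2553 and 3808 UMIs) the shares were 13.9% and 28.9% for C5ar1 and 35.1% and 51.8% for C3ar1, close to those of microglia-like cells, so the share of cells with a UMI is not read as expression by each cell. The pair was detected in the same cell in 5.65% and 18.7%. C5ar2, the second C5a receptor, was at 51.0 and 61.2 CPM (log2 ratio 0.26).

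Every one of the 8 classes had a higher C5ar1 and Itgb2 level in the corticosterone library. Microglial RNA was present in every class, so the classes are not independent observations. How many other genes were higher in all 8 was not tested. For C5ar1 the log2 ratio ranged from 0.77 (0.53 to 1.02) in the Camp, Ngp and Ltf cluster to 1.65 (1.38 to 1.92) in the H2-Eb1, H2-Aa and Cd74 cluster. Itgb2 ranged from 0.51 in the Camp, Ngp and Ltf cluster to 1.39 in erythroid cell-like barcodes. Itgam was lower in 7 of the 8 classes, from -0.96 in border-associated macrophage-like cells to -0.54 in erythroid cell-like barcodes, and at 0.14 (-0.03 to 0.31) in the Camp, Ngp and Ltf cluster. The log2 ratio of C3ar1 was above 0 in 7 of 8, with an interval across 0 in monocyte-like cells (-0.22 to 0.71). It was -0.94 in the Camp, Ngp and Ltf cluster. Finer clustering split that cluster into pieces with values of 0.18 (-0.34 to 0.72), 0.59 (-0.21 to 1.31) and -1.49 (-2.52 to -0.55). Erythroid cell-like barcodes, which should lack all of these genes, carried the microglial values: C5ar1 was at 147 and 397 CPM there, against 160 and 433 in microglia-like cells.

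**Figure D3:**
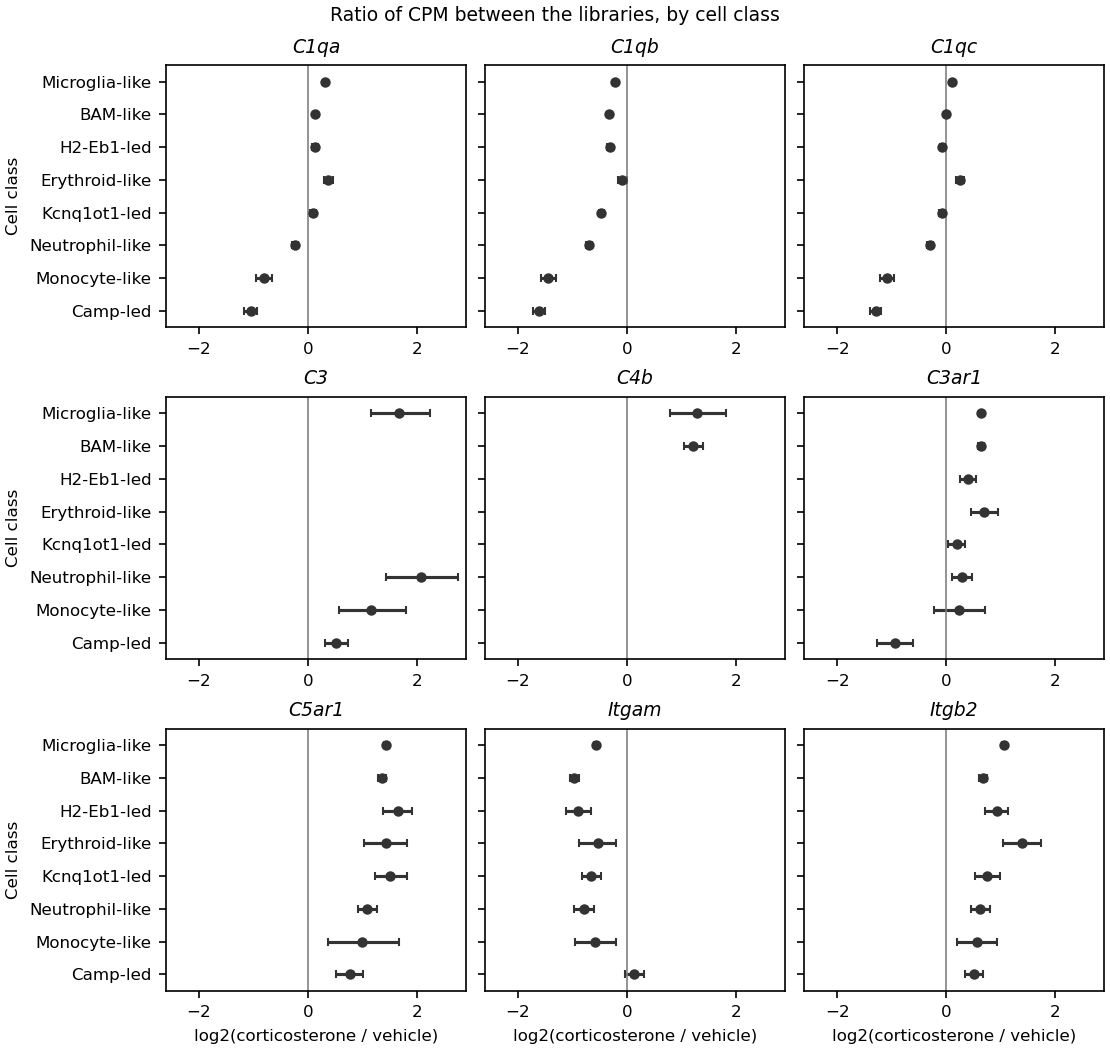
Log2 ratio of CPM, corticosterone over vehicle, for each gene (panels) in 8 cell classes (rows), with 95% counting intervals as bars and a line at 0. Classes with under 20 UMIs of the gene in either library are left blank, and C5ar1 and Itgb2 lie right of 0 in all 8 classes.

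RNA of microglia was present in the barcodes of every class, and its level differed between the libraries. It was read from 4 of the fixed microglia markers, Sall1, P2ry12, Tmem119 and Siglech. In erythroid cell-like barcodes these markers stood at 0.812 times their microglia-like level in vehicle (median of the markers, range 0.764 to 0.842) and 0.861 times in corticosterone (0.718 to 0.903). The C1q chains together stood there at 0.811 and 0.877 times, within the range of the markers in both libraries. In the Camp, Ngp and Ltf cluster the markers were at 0.352 and 0.139 times and C1q at 0.381 and 0.145 times. Monocyte-like cells held markers at 0.585 and 0.242 times and C1q at 0.633 and 0.277 times. The log2 ratio of C1qa between libraries was -1.05 in the former and -0.81 in the latter. Neutrophil-like cells held markers at 0.700 and 0.537 times and C1q at 0.796 and 0.572 times, and the log2 ratio of C1qa was -0.23. The relative level of the markers was lower in corticosterone than in vehicle in these 3 classes. Whether such RNA was free in the suspension or came from joined cells was not tested.

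In border-associated macrophage-like cells and in the H2-Eb1, H2-Aa and Cd74 cluster, C1q and C3ar1 stood above the microglial markers in both libraries. C1q was also above the highest marker in neutrophil-like cells, at 0.796 against 0.776 times in vehicle and 0.572 against 0.543 times in corticosterone. Border-associated macrophages live at the vessels and meninges and are themselves known to make C1q. In that class the markers stood at 0.825 times the microglia-like level in vehicle and 0.659 times in corticosterone, the C1q chains at 1.02 and 0.924 times, and C3ar1 at 1.004 and 1.01 times. The H2-Eb1, H2-Aa and Cd74 cluster, whose leading genes present antigen on MHC class II, had markers at 0.802 and 0.649 times, C1q at 0.989 and 0.883 times and C3ar1 at 1.11 and 0.939 times. C5ar1 was also higher in border-associated macrophage-like than in microglia-like cells of the same library, by 1.24-fold in vehicle and 1.18-fold in corticosterone.

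Neutrophil-like cells held C5ar1 and the integrin chains above their relative level of microglial markers in both libraries. Neutrophils are known to bear C5a receptor and complement receptor 3 at high levels. In neutrophil-like cells C5ar1 was at 296 CPM in vehicle and 634 in corticosterone, the highest of all 8 classes in both libraries, and 1.86 and 1.46 times the microglia-like level. Itgb2 was highest in the Camp, Ngp and Ltf cluster, whose leading genes encode granule proteins of maturing neutrophils, at 478 and 680 CPM, or 1.85 and 1.25 times the microglia-like level. Itgam there was at 535 and 590 CPM, 1.03 and 1.68 times the microglia-like level. In vehicle the intervals of Itgam overlapped between that cluster, neutrophil-like cells (526 CPM) and microglia-like cells (520 CPM), and in corticosterone the cluster stood above both (306 and 351 CPM). Monocyte-like cells held Itgb2 at 372 and 551 CPM, 1.44 and 1.01 times the microglia-like level. C5ar1 was low in them, at 118 and 236 CPM, or 0.737 and 0.544 times the microglia-like level. In vehicle the interval of that ratio (log2 -1.07 to 0.12) held the level of the markers. In corticosterone the interval (log2 -1.13 to -0.64) lay above the markers, which stood at 0.242 times.

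**Figure D4:**
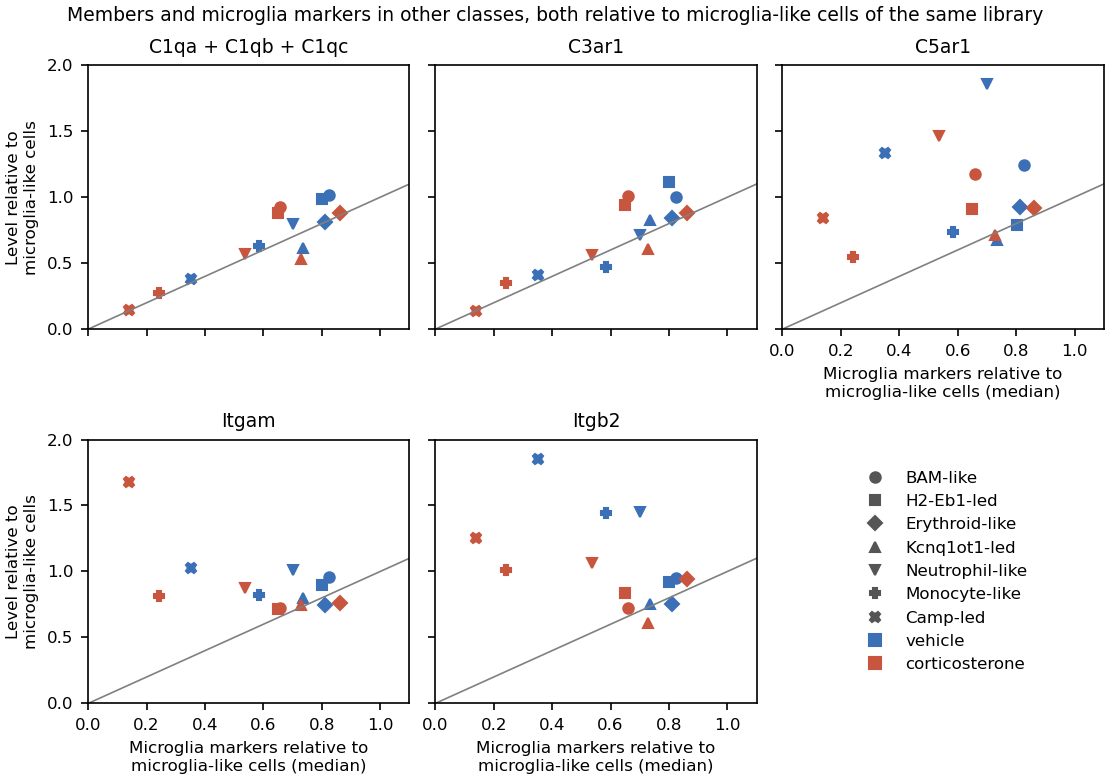
Level of C1q (summed chains), C3ar1, C5ar1, Itgam and Itgb2 in 7 classes relative to microglia-like cells of the same library (vertical), against the median relative level of microglia markers in the same class (horizontal), with the line of equal values. C1q lies near the line in erythroid-like, neutrophil-like, monocyte-like and Camp-led classes, while C5ar1 and Itgb2 of neutrophil-like cells (1.86 and 1.45 in vehicle) lie above it.

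C3, the central component, was hardly detected in microglia. Microglia-like cells held 34 C3 UMIs in 7897 vehicle cells, or 1.05 CPM (0.731 to 1.47), and 241 UMIs in 15260 corticosterone cells, or 3.37 CPM (2.96 to 3.83). The log2 ratio was 1.68 (1.15 to 2.24), from 0.43% of vehicle and 1.37% of corticosterone cells with a UMI. Thinned to 1000 UMIs these shares were 0.10% and 0.38%, beside 0 of 151 erythroid cell-like barcodes in vehicle, which allows a share of up to 1.99%, and 1.20% of 83 in corticosterone, so at this depth the gene was not told apart from background. Over all cells of a library the log2 ratio was 0.55, at 8.41 and 12.3 CPM. With a rule per cell in place of clusters, which kept 10120 vehicle and 17019 corticosterone cells, it was 0.27. Inside the microglia-like class the summed level of the 8 neutrophil markers, all detected, was 801 CPM in vehicle and 650 in corticosterone. The 7 immature neutrophil markers (6 detected in vehicle, 7 in corticosterone) summed to 136 and 48.5 CPM, and the 7 monocyte markers, all detected, to 21.6 and 36.5 CPM. Their part in the C3 difference was not tested. A small subcluster of microglia-like cells led by Camp, Ngp and Lcn2 (291 and 242 cells) held C3 at 8.30 and 7.26 CPM, and without it the log2 ratio was 1.95.

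Most C3 transcripts lay outside microglia. In vehicle 75.7% of the library's 415 C3 UMIs came from the Camp, Ngp and Ltf cluster, which held 2.05% of all UMIs, and in corticosterone 45.8% of 1050 came from it. C3 was at 311 CPM in vehicle and 449 in corticosterone in that cluster, 127 and 284 CPM in monocyte-like cells, and 20.5 and 86.5 CPM in neutrophil-like cells. The order of these 3 classes was the same in both libraries with intervals that did not overlap, and in vehicle neutrophil-like cells overlapped the next class, erythroid cell-like barcodes at 3.68 CPM. The log2 ratio was 0.53 (0.32 to 0.74) in the Camp, Ngp and Ltf cluster, 1.16 (0.57 to 1.81) in monocyte-like cells and 2.08 (1.44 to 2.77) in neutrophil-like cells. The libraries held different cells of the Camp, Ngp and Ltf cluster. Finer clustering (resolution 1.0), applied to it after its values were seen, split it mainly into 106 vehicle and 104 corticosterone cells, whose microglia markers were at 0.208 and 0.133 times the microglia-like level, and 108 vehicle and 7 corticosterone cells, with markers at 0.640 and 0.361 times. In the former C3 was at 379 and 414 CPM, a log2 ratio of 0.13 (-0.13 to 0.39), so the C3 difference of the whole cluster was not seen there. The same cells had log2 ratios of 0.18 (-0.34 to 0.72) for C3ar1, -0.18 for C1qa, 0.73 for C5ar1, 0.37 for Itgb2 and 0.14 for Itgam. C3 was higher in corticosterone in the remaining pieces. A piece of 21 vehicle and 13 corticosterone cells, led by cycling genes, held C3 at 378 and 605 CPM. Its log2 ratio was 0.68, with an interval above 0. The piece of 108 and 7 cells held C3 at 136 and 312 CPM. The log2 ratio there was 1.2, with an interval across 0. The C3 gene lies at chr17:57203970-57228136 on the minus strand. Its 250 bases before the start (chr17:57228137-57228386) are shown because most of its vehicle UMIs came from 1 granulocyte cluster, with capitals for TTGCNNAA, the core bound by C/EBP factors of myeloid and acute-phase genes.
C3: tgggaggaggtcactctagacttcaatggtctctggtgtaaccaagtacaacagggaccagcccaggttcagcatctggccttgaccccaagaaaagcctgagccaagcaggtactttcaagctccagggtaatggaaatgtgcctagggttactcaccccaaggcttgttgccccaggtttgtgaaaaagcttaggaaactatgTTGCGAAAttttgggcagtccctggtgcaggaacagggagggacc
The match, TTGCGAAA, began 45 bases before the start, and 10.8% of all promoter windows held TTGCNNAA on either strand.

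C4b, which follows C1q in the classical pathway, was highest in border-associated macrophage-like cells. The class held C4b at 44.5 CPM in the vehicle library and 104 CPM in the other, above the other 7 classes in both libraries, and gave 87.7% of 562 vehicle and 71.9% of 985 corticosterone C4b UMIs. Microglia-like cells were at 1.21 CPM (39 UMIs) and 2.97 CPM (212 UMIs), 36.8-fold and 35.1-fold lower. Between libraries the log2 ratio was 1.22 (1.06 to 1.39) in border-associated macrophage-like cells and 1.29 (0.80 to 1.83) in microglia-like cells. The libraries filled different clusters of this class: of the pair of clusters, 952 of 1049 vehicle cells were in one and 746 of 770 corticosterone cells in the other. Within the former, vehicle cells held C4b at 42.7 CPM and 24 corticosterone cells at 107 CPM, and within the latter 97 vehicle cells held it at 111 CPM and the corticosterone cells at 104 CPM. The median vehicle cell of the 97 held 2278 UMIs, against 7588.5 for the 952. In monocyte-like cells C4b had 0 UMIs in vehicle, which allows up to 14.1 CPM, and was at 24.2 CPM in corticosterone. The gene (chr17:34728380-34743882, minus strand) has a near copy, C4a, 65209 bases away, so reads may have been split between them and its counts are uncertain.

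**Figure D5:**
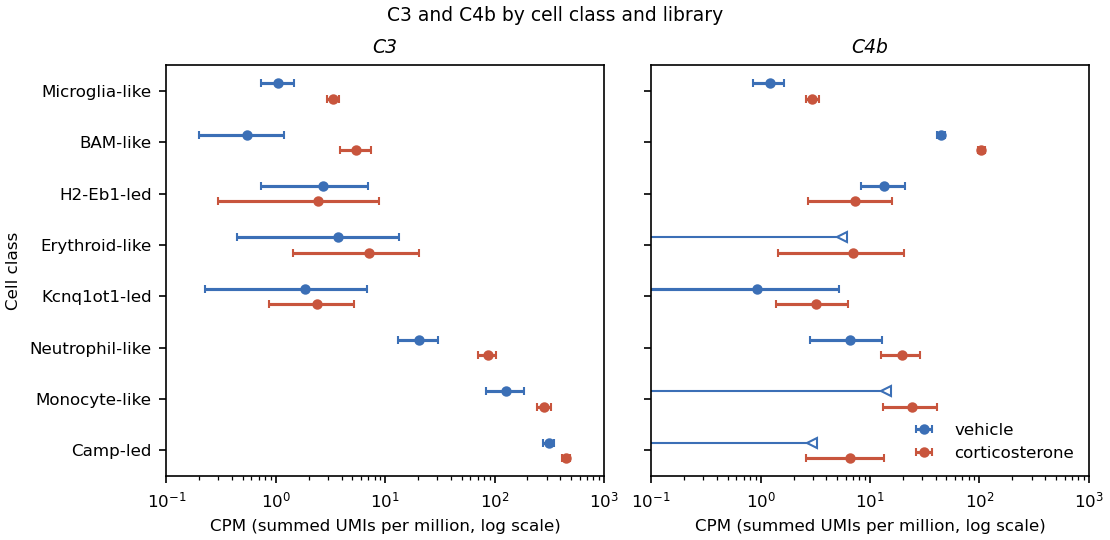
Level of C3 (left) and C4b (right) in CPM on a log scale in 8 cell classes (rows) of the vehicle (blue) and corticosterone (red) libraries, with 95% Poisson intervals. Open triangles mark the limit of 3 counts for classes with 0 UMIs. C3 is highest in the Camp-led cluster (311 and 449 CPM) and C4b in border-associated macrophage-like (BAM-like) cells (44.5 and 104 CPM).

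The C4b difference in microglia-like cells depended on which cells were counted. Over all cells of a library C4b was at 11.4 and 11.6 CPM, a log2 ratio of 0.02, and with the mean over cells it was 0.19. With a rule per cell in place of clusters it turned to -0.33. That rule kept 10120 of 10500 vehicle and 17019 of 17883 corticosterone cells, near the set of all cells. The summed level of the 9 border-associated macrophage markers inside the microglia-like class, all detected, was 306 CPM in vehicle and 325 in corticosterone, and its part in the difference was not tested. Within microglia-like cells C4b was highest in the subcluster led by the interferon response genes Ifi211, Ifit3b and Ifit3, at 7.56 CPM (2.77 to 16.5) in 177 vehicle cells and 13.7 CPM (10.6 to 17.4) in 906 corticosterone cells. All other microglia-like cells were at 1.05 and 2.18 CPM. The interferon subcluster's intervals lay above both values. Its vehicle value rests on 6 UMIs. That interval overlapped the one of the subcluster led by Camp, Ngp and Lcn2 (0.287 to 8.57 CPM), among others, so the order in vehicle is uncertain. Without the interferon subcluster the log2 ratio between libraries was 1.05.

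The receptors varied most in the smallest subcluster, led by Lpl, Lgals3 and Gas2l3, which held 89 vehicle and 85 corticosterone cells. Lpl, a lipoprotein lipase, and Lgals3, a galectin, are known to be raised in phagocytic microglia. In vehicle this subcluster held C3ar1 at 1062 CPM (969 to 1161), against 513 CPM in the other microglia-like cells, and C5ar1 at 374 CPM (320 to 435), against 157 CPM. In corticosterone the gap was smaller, with C3ar1 at 1008 and 814 CPM and C5ar1 at 594 and 432 CPM. The log2 ratio between libraries within it was -0.07 for C3ar1 and 0.67 for C5ar1, the lowest of the 5 subclusters for both, whose others lay between 0.52 and 0.68 and between 1.25 and 1.51. Itgb2 did not stand out in it, at 267 CPM in vehicle and 526 in corticosterone, and Itgam was at 447 and 271 CPM, below the other cells (521 and 352 CPM). In the large subclusters led by Nr4a1, Egr3 and Rcan1 (4800 and 9280 cells) and by Cmss1, Rgs1 and Klf4 (2540 and 4747 cells), C5ar1 was at 162 and 457 CPM and at 134 and 382 CPM.

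Counts of members past 1.5-fold in the other well-filled classes were read against their own backgrounds. In border-associated macrophage-like cells 5 members were higher (C3, C4b, C3ar1, C5ar1 and Itgb2) and Itgam was lower, with a median log2 ratio of 0.65. Among 6563 genes at 20 CPM or more 6.05% were higher and 5.09% lower there, and among the 8 members at that level 4 were higher and 1 lower, with a median of 0.39. Not all of these calls held within both macrophage clusters, a split also made after the values were seen. C5ar1 was higher by 2.15-fold within the cluster of most vehicle cells and 2.01-fold within that of most corticosterone cells, and Itgb2 by 1.59-fold and 2.86-fold. C3ar1 was higher by 1.66-fold in the former but 1.19-fold in the latter (688 and 819 CPM), and Itgam had log2 ratios of -1.23 and -0.32 (503 and 214 CPM, 321 and 257 CPM). C4b was higher by 2.51-fold in the former and at 0.933 times in the latter. C3 rested on few UMIs, 6 in vehicle and 0 in corticosterone in the former, and 0 and 37 in the latter. Its difference therefore could not be read within either cluster. In neutrophil-like cells 4 members were higher (C3, C4b, C5ar1, Itgb2) and 2 lower (C1qb, Itgam), with a median of 0.29. Among 6243 genes at 20 CPM or more 10.7% were higher and 14.5% lower in that class, and among the 8 members at that level 3 were higher and 2 lower, with a median of 0.03.

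The rest of the complement system was sparse in microglia. Of 48 other complement genes listed, all were in the files, 7 reached a mean of 20 CPM in microglia-like cells, 34 lay under 1 CPM and 8 had 0 UMIs in both libraries. None of the 7 terminal pathway genes, the 3 alternative pathway genes or the 14 other genes of the classical and lectin pathways reached 20 CPM. Of the 7 that did, Calr, a chaperone that also acts as a C1q receptor at the cell surface, was higher at 861 and 1340 CPM (log2 ratio 0.64). Csmd3, a very large membrane protein with complement control domains, was lower at 150 and 17.6 CPM (-3.08). Its level was 1471 and 264 CPM in the low-UMI cluster led by Kcnq1ot1, Lrmda and Nav2. The regulator Cr1l (Crry, a membrane inhibitor of C3 cleavage) was at 124 and 155 CPM, with a log2 ratio of 0.32. C1qbp, a mitochondrial protein that binds C1q, was at 73.8 and 92.0 CPM (0.32), and Lrp1, an uptake receptor that partners Calr, at 804 and 648 CPM (-0.31). Of these 7, 1 was higher and 1 lower by 1.5-fold.

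Outside microglia, properdin (Cfp, which stabilises the C3 convertase) followed the granulocytes and macrophages. Chosen after its values were seen, it was at 103 and 187 CPM in the Camp, Ngp and Ltf cluster, 97.4 and 125 CPM in neutrophil-like cells and 51.0 and 74.0 CPM in border-associated macrophage-like cells, against 2.82 and 1.05 CPM in microglia-like cells. Vsig4, a macrophage receptor for C3 fragments chosen in the same way, had 1 UMI in vehicle and 93 UMIs in corticosterone border-associated macrophage-like cells (0.090 and 13.7 CPM).

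Patterns over the 16 profiles (8 classes in 2 libraries) were compared by Pearson r of log2(CPM + 1) against 6431 genes. The ranking left out the members and the other listed complement genes. Profiles share their library and microglial RNA, so r is a description. C1qa was most like Lgmn, a lysosomal enzyme (r = 0.995), C1qb most like Saraf and Serinc3 (0.991 and 0.984), and C1qc most like Serinc3 and Rnf13 (0.988 and 0.986). C1qc and C1qa, both members, had an r of 0.9895 with each other, above that of C1qc with Serinc3. C3ar1 was most like Pea15a and P2ry6 (0.980 and 0.976), C5ar1 most like Hcar2 and Trappc6b (0.867 and 0.845), Itgb2 most like Igsf6 and Chst12 (0.960 and 0.935) and Itgam most like Cdk5r1 and Ncaph (0.854 and 0.821). C3 went with Grk6 and Cdkn2d (0.958 and 0.951). C4b went with Folr2 and Lyve1 (0.829 for both), and Lyve1 is a marker that named the macrophage class. Among members, Itgam had no close partner, its highest r being 0.20 with C3, while Itgb2 and C5ar1 reached 0.74.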

How the data were processed

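Microglia were profiled in 1 vehicle and 1 corticosterone library. The deposited matrices give UMI counts that were not normalised, as their whole numbers and unequal cell totals show. Per the submitters' processing notes the build was GRCm38 and bcl2fastq 2.19 was used. The aligner and the counting program are not given in the sources used here.

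Cells with at least 500 UMIs, 300 genes and at most 20% mitochondrial UMIs were kept (55 and 230 barcodes removed). Scrublet in scanpy 1.11.5 called 0 doublets in each library, which was taken as not having worked, so none were removed. Clustering (log counts per 10000 UMIs, 2000 variable genes, 30 components, 15 neighbours, Leiden resolution 0.5) left out all complement genes. A cluster took the name of a class when at least 3 of its markers were at least 2 times above the rest, and microglia-like when the markers reached 0.5 times their overall level. Clusters led by another class's markers or of low depth stayed unnamed. These naming thresholds were set with the data in view. Microglia-like cells of both libraries were clustered again together (resolution 0.4), after gene values had been standardised separately for each library. For symbols listed more than 1 time (52 rows) the earliest row was used.

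UMIs were summed per class and library. Ratio intervals are exact (Clopper-Pearson on the split of counts) at the 95% level, and a 0 allows 3 counts. Intervals cover counting error only. Shares of cells used 1 thinning to 1000 UMIs, and left out 589 vehicle and 93 corticosterone microglia-like cells that were shallower. Gene positions are from GENCODE M21. In simulated counts for 6604 genes with 200 changed, the intervals held the true ratio in 94.8%. Named genes were the members, the other listed complement genes and integrin chains at 20 CPM or more, and the 2 genes most like each member. Some of the genes this rule names are not reported here. The members and lists were chosen with earlier results of these data known. Alternatives were scaling by edgeR 4.0.16 or DESeq2 1.42.0 factors, stricter cell filters, other clustering, a rule per cell (at least 3 microglia markers and more than of any other class), all cells, and the mean over cells.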

Additional observations from a re-analysis of the deposited data

Results flagged for a closer look

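The direction between libraries in 3 members was opposite in some classes to that in microglia-like cells, with counting intervals on either side of 0. With 1 library per group these differences between classes were not tested. C1qa had a log2 ratio of 0.31 in microglia-like cells, but -0.81 in monocyte-like cells, -0.23 in neutrophil-like cells and -1.05 in the Camp, Ngp and Ltf cluster. For C1qc the value was 0.12 in microglia-like cells. It was -1.08 in monocyte-like cells, -0.29 in neutrophil-like cells, -1.29 in the Camp, Ngp and Ltf cluster, -0.0677 in the cluster led by Kcnq1ot1, Lrmda and Nav2, and -0.0644 in the H2-Eb1, H2-Aa and Cd74 cluster. C3ar1 was at 0.65 in microglia-like cells and -0.94 in the Camp, Ngp and Ltf cluster. Within the 106 vehicle and 104 corticosterone cells that finer clustering kept together in that cluster, the values were -0.18 for C1qa, -0.41 for C1qc and 0.18 for C3ar1, with an interval from -0.34 to 0.72 for the last. In a piece of 21 vehicle and 13 corticosterone cells they were -1.39, -1.41 and -1.49. In the piece of 108 and 7 cells they were -0.20, -0.19 and 0.59, with intervals across 0. In the whole cluster the level of 4 microglia markers relative to microglia-like cells was 0.352 in vehicle and 0.139 in corticosterone, and its part in these values was not tested.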

How the results depend on the processing

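Over 13 alternatives, C3ar1, C5ar1 and Itgb2 stayed past 1.5-fold in all 13 (log2 ratios from 0.63 to 0.75, 1.36 to 1.55 and 1.01 to 1.18), and C1qa, C1qb, C1qc and Itgam kept their direction and stayed within it (Itgam from -0.58 to -0.46). C3 ranged from 0.27 to 1.95 and was past 1.5-fold in 11, and C4b ranged from -0.33 to 1.60 and was past it in 10. C4b was reversed at -0.33 with the rule per cell, and the cause was not tested. That rule kept 10120 of 10500 vehicle and 17019 of 17883 corticosterone cells, near the set of all cells. The number of members higher was 3 with the rule per cell and 3 over all cells. The median log2 ratio over members moved to 0.73 with edgeR's TMM factors, 0.75 with DESeq2 size factors, 0.27 with the rule per cell, 0.29 over all cells, 0.37 with the mean over cells and 0.31 over members at 20 CPM or more. TMM and DESeq2 factors shifted the median of all genes to 0.09 and 0.11. Of genes past 1.5-fold, 52.7% were higher in corticosterone as reported, 67.3% with TMM and 70.9% with DESeq2 factors. With 1 or more UMIs in each library in place of 20 CPM, 10.2% of genes were higher and 22.2% lower. The filters at most 5% mitochondrial UMIs and without the neutrophil-granule subcluster were chosen after seeing the data. No paired analysis was possible because there was 1 library per group. Depth limits C3 and C4b in microglia-like cells, which rest on 34 and 39 vehicle UMIs.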
